A study of Mus musculus with 12 samples.

Results

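Transcripts of 36 genes were followed in immune and tumor cells of mouse breast tumors. A first group of 24 genes encodes the transporters and enzymes that carry glucose into a cell, break it down to pyruvate and lactate, and export the lactate. The other 12 genes belong to the response to low oxygen. The genes were taken from a list of names and not chosen by a threshold on expression, and each had a row among the 31053 genes of both count matrices.

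The cells were isolated from spontaneous breast tumors of adult female C57BL/6 mice. All mice carried the MMTV-PyMT transgene, in which the mouse mammary tumor virus promoter drives polyoma middle T antigen in the mammary epithelium, and they received no other treatment. Mice were either PAR2 WT or carried PAR2 G37I, an allele of protease-activated receptor 2 (*F2rl1* tm2.1Wmrf) that coagulation factor Xa cannot activate, and the labels give no age. CD11c-selected cells (macrophages and dendritic cells, late-stage tumors) and CD4/CD8-selected T cells (mid-size tumors) were bead-selected, frozen, thawed and sequenced on the 10x Genomics platform from 3 samples per genotype, 12 samples in all. The matrix used here for each selection holds its 6 samples together, and nothing in it ties a cell to its sample. The genotypes were therefore not compared, each matrix counts as 1 sample, and no p-value is given.

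Glycolysis converts glucose to pyruvate in the cytoplasm, and lactate dehydrogenase turns the pyruvate into lactate when it is not oxidized in mitochondria. When oxygen is short, the transcription factors HIF-1α and HIF-2α escape the prolyl hydroxylases that mark them for destruction, and they bind DNA elements with the core letters ACGTG or GCGTG near many glycolysis genes and near genes such as *Bnip3*. Parts of solid tumors are poorly perfused, and tumor macrophages in such regions are known to carry hypoxia-response transcripts.

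After removal of barcodes with fewer than 200 detected genes, 11639 of 11980 CD11c-selected barcodes and 22806 of 23101 CD4/CD8-selected barcodes remained, with 123642015 and 135965765 UMIs (unique transcript molecules counted) and a median of 7943 and 4361 UMIs per cell. The members took 0.524% and 0.431% of all UMIs. In each matrix the barcode list ran through the alphabet 6 times, and these 6 stretches, called barcode runs, are given below only to show spread, since which samples they hold is not known. In all, 76 and 51 barcodes occurred again within a matrix, and doublets were not removed. Cell types were set by gates on raw UMIs of marker genes, none of them a member. All 5 further macrophage, neutrophil, cDC1, cDC2, migratory DC and tumor markers had UMIs in their gates. Detection in the summed cells of a gate is a weak check, and marker levels in other gates are not given here. The names of gates are working names for their rules. The conventional dendritic gate called cDC1 rests on *Xcr1* and *Clec9a*, the cDC2 gate on *Cd209a* and *Flt3*, and the migratory DC gate on *Ccr7* and *Fscn1*. A monocyte gate in the CD4/CD8-selected cells carried T cell markers and was dropped.

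The promoters of the members hold the letters of the HIF core element more often than promoters do at large. RefSeq gave a promoter of 250 bases before and 50 bases after a transcription start for 32 of the 36 members. ACGTG, read on either strand, stood in the promoter of 22 of these 32 genes (68.8%) against 21.8% of 27025 genes. ACGTG or GCGTG stood in 29 of 32 (90.6%) against 46.7%. The median GC content of the members' promoters was 64.8%, against 52.7% over all promoters, and its part in these shares was not tested. Of the members that moved together over CD11c-selected cell types in the results that follow, 12 had a promoter. ACGTG stood in 9 of these (75%, beside 68.8% of all members) and not in *Tpi1*, *Eno1* or *Pdk1*. Below are windows of 41 bases (GRCm38.p6, 5′ to 3′ on the strand of the gene) for 8 of them. These were picked for a match that lies with its flanks before the start. Each ACGTG, or CACGT where it is read on the other strand, is in capitals. Where both readings overlap, the capitals run CACGTG. The matches lie 32 to 129 bases before the RefSeq start. A match is a string of letters and not a measured binding site.

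*Aldoa*, chr7:126799358-126799398, minus strand: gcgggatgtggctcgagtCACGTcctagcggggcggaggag
*Pgk1*, chrX:106186951-106186991, plus strand: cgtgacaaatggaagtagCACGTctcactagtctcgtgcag
*Pgam1*, chr19:41911739-41911779, plus strand: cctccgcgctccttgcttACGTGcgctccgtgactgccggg
*Pkm*, chr9:59657134-59657174, plus strand: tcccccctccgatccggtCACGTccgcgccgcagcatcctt
*Ldha*, chr7:46845752-46845792, plus strand: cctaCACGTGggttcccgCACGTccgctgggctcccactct
*Slc2a1*, chr4:119108691-119108731, plus strand: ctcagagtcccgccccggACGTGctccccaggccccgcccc
*Ero1l*, chr14:45318613-45318653, minus strand: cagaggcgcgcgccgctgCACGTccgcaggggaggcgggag
*Bnip3*, chr7:138909591-138909631, minus strand: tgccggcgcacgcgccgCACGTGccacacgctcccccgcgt

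The *Ldha* window, in the gene for the A subunit of lactate dehydrogenase, held a CACGTG and, apart from it, a CACGT. The 250 bases before the *Bnip3* start are shown whole because *Bnip3*, which encodes a mitochondrial receptor for mitophagy, is used below to divide macrophages. Capitals here mark ACGTG and GCGTG on either strand.

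*Bnip3*, chr7:138909507-138909756, minus strand: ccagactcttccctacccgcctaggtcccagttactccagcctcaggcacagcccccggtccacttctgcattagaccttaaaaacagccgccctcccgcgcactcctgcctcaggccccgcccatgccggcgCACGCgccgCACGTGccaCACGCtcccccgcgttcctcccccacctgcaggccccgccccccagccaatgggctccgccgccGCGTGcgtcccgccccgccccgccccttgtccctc

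Among CD11c-selected cells, the members were highest together in macrophages with *Gpnmb* and *Trem2* (at least 2 UMIs of each, 143 cells), markers of lipid-handling tumor macrophages. Levels are UMIs of a gene per 1000000 UMIs of the gate (CPM), with 95% Poisson intervals that cover counting error only. The 36 members summed to 9218 (95% interval 9116 to 9320.1) CPM there, against 5535 (95% interval 5515 to 5555) in all 4219 macrophages (*Adgre1*, *Csf1r* and *C1qa* positive). Macrophages with *Tmem119* and *Zmynd15* reached 6130.0, *Retnla Ear2* myeloid cells 5942, neutrophils 5598, monocytes 5309, tumor cells 5146 and *Thbs1* macrophages 4322. Conventional dendritic cells were lower, at 3976 in cDC1 and 3872 in cDC2. The lowest sums were those of *Il10* macrophages (3137), migratory DC (3135) and macrophages with *Lyve1* and *Cd209f* (3092), markers of tissue-resident macrophages. The last gate kept cells that also met another macrophage gate, a choice made after only 35 cells were left without it.

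**Figure D1:**
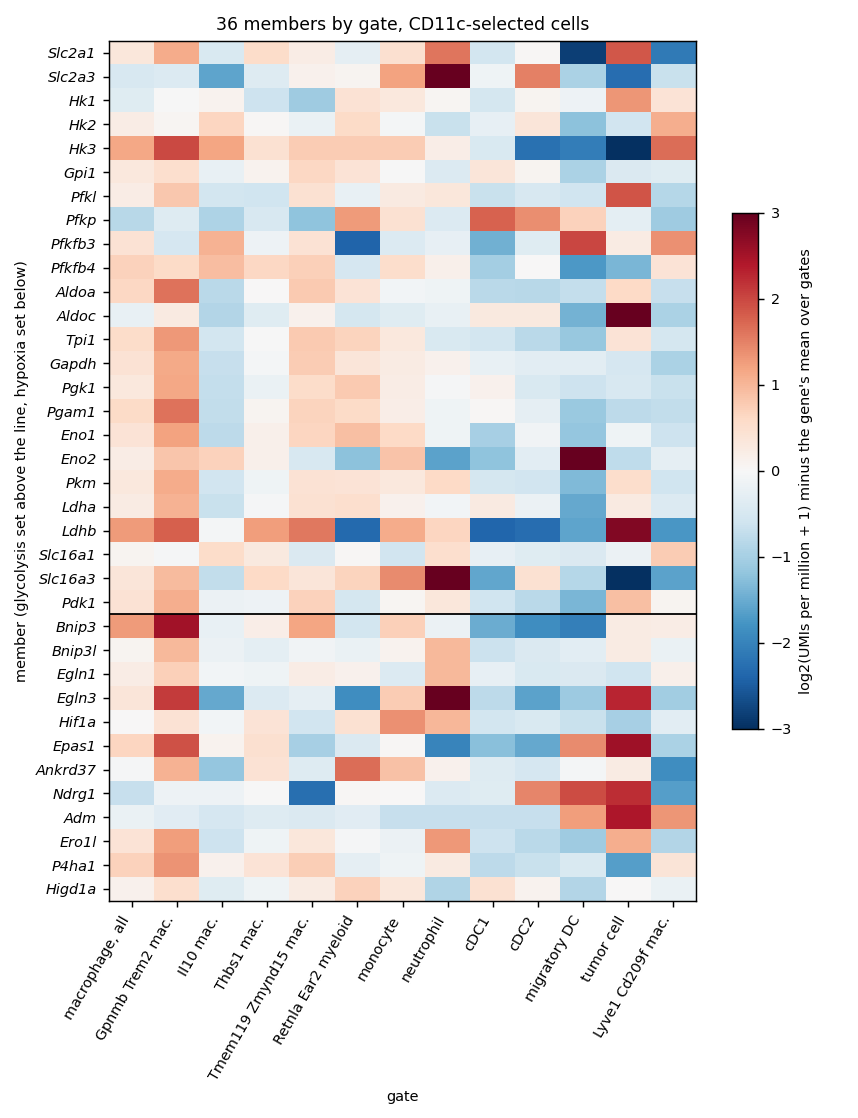
Levels of all 36 members (vertical) in the gates of the CD11c-selected cells (horizontal), as log2(CPM + 1) minus the mean of the gene over the gates, with the colour scale cut at 3 either way. The *Gpnmb Trem2* column is above the gene's mean for most enzymes of the lower pathway, the cDC1 and cDC2 columns are above it for *Pfkp*, and the tumor cell and migratory DC columns for *Ndrg1*.

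In *Gpnmb Trem2* macrophages, 5 of the 32 members that reached 5 CPM in the whole matrix were at least 2-fold higher than in the other macrophages, against 3.86% of all 9279 genes tested. Calls of 2-fold between gates were made after adding 1 UMI to each count, and the folds printed for gates are without it. None was 2-fold lower (7.27% of all genes), and 28 of 32 were above the other macrophages to some degree. The median log2 fold over the members was 0.74, against -0.04 over all genes. *Aldoa*, the aldolase that splits fructose 1,6-bisphosphate, stood at 1063 against 492, 2.16-fold (95% interval 2.09 to 2.24) higher. *Pgam1*, phosphoglycerate mutase, stood at 799 against 353, 2.26-fold (95% interval 2.17 to 2.36) higher. Among hypoxia-response genes, *Bnip3* was at 102 against 38.0, 2.67-fold (95% interval 2.38 to 3.00) higher, and *Epas1*, which encodes HIF-2α, at 13.7 against 4.56. *Ankrd37*, an ankyrin repeat gene known as a HIF target, was at 10.2 against 3.96 and completed the 5.

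Later enzymes of the pathway other than *Pgam1* were higher by less than 2-fold. *Gapdh* was 1.71-fold (95% interval 1.67 to 1.76) higher, *Pgk1* 1.90-fold (95% interval 1.81 to 2.01), *Eno1* 1.85-fold (95% interval 1.73 to 1.98), *Pkm* 1.81-fold (95% interval 1.75 to 1.87) and *Ldha* 1.81-fold (95% interval 1.74 to 1.88). The members below the other macrophages were *Pfkfb3* at 0.497-fold (not called once 1 UMI was added), *Hk2* at 0.881-fold, *Pfkfb4* at 0.903-fold and *Slc16a1*, a lactate transporter, at 0.908-fold. *Hk2* encodes a hexokinase, and *Pfkfb3* and *Pfkfb4* make the regulator fructose 2,6-bisphosphate. These cells also held more RNA, with a median of 22068 UMIs against 9903 in all macrophages, and 68 of the 143 lay in 1 barcode run. With only macrophages of at least 10000 UMIs on both sides, the summed members were 1.61-fold those of the other macrophages, against 1.75-fold without that limit. Within a run, the summed members of *Gpnmb Trem2* macrophages were 1.91-, 2.23-, 1.36- and 1.45-fold those of the run's other macrophages in the 4 runs with at least 10 such cells. Of 45 further genes of the pathway, 30 were tested, and 5 were 2-fold higher and none lower. They included *Mif* (868 against 367), a cytokine gene induced by hypoxia, and *P4ha2*, a collagen prolyl hydroxylase (12.9 against 6.29).

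*Lyve1 Cd209f* and *Il10* macrophages were at the other end. In *Lyve1 Cd209f* macrophages, 14 of 32 members were at least 2-fold lower than in other macrophages (9.35% of all genes) and none was 2-fold higher (8.37%), with a median log2 fold of -0.84 against -0.01 over all genes. *Slc2a1*, the glucose transporter GLUT1, stood at 12.2 against 73.8, 6.06-fold (95% interval 4.06 to 9.46) lower. *Gapdh* stood at 473 against 1252. *Slc16a3*, the lactate exporter MCT4, stood at 22.3 against 91.8. *Hk2* and *Pfkfb3* were on the other side in the same cells, at 1.91-fold and 1.97-fold of the other macrophages, and 5 of 32 members in all were above 1. The summed members were 0.397 to 0.739 of those of the other macrophages in each of 6 barcode runs.

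In *Il10* macrophages, 12 of 32 members were 2-fold lower (2.94% of all genes) and none was 2-fold higher (4.31%), with a median of -0.75 against -0.05. *Bnip3* stood at 14.2 against 46.5 and *Aldoa* at 198 against 579.8. Their summed members were 0.496 to 0.693 of the other macrophages in 6 of 6 runs, and 0.513 to 0.871 in the 5 runs of CD4/CD8-selected cells with at least 10 *Il10* macrophages. *Vegfa*, the main angiogenic growth factor and a further pathway gene, was also lower in both gates, at 89.5 against 213 in *Il10* macrophages and 46.7 against 203 in *Lyve1 Cd209f* macrophages. Of the further genes, 6 and 7 of 30 were 2-fold lower, and 0 and 2 higher. *Selenbp1*, a selenium-binding protein gene, was 4.93-fold (95% interval 4.07 to 5.94) higher in *Lyve1 Cd209f* macrophages.

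*Thbs1* macrophages carried more *Vegfa*, and no member was called higher. *Vegfa* stood at 419 against 177, 2.37-fold (95% interval 2.25 to 2.49) higher, and *Mxi1*, a MAX-interacting repressor, was 2.39-fold (95% interval 2.23 to 2.56) higher. Of the members 0 were 2-fold higher (2.51% of all genes), and 1, *Bnip3*, was 2-fold lower at 19.6 against 44.2 (3.44% of all genes). The summed members were 0.766-fold those of the other macrophages, but 1.09-fold with cells of several gates kept, and in 1 of 5 barcode runs they were higher, 1.15-fold (95% interval 1.10 to 1.19) with 21 of 32 members above 1. *Tmem119 Zmynd15* macrophages had summed members above those of the other macrophages in 4 of 6 barcode runs, by at least 1.07-fold. In another run the ratio was 1.00 (95% interval 0.985 to 1.02), and in the remaining run the sums were 3539.7 against 4481.

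Macrophages differed more between barcode runs in these genes than in most. In all CD11c-selected macrophages, 10 of 19 members of at least 50 CPM were at least 2-fold higher in the highest than in the lowest run, against 8.29% of 2848 genes of that level, and the median ratio of highest to lowest run was 2.20 against 1.40. *Aldoa* had a lowest, median and highest run of 242, 414 and 814. *Gapdh* had 655, 1053 and 1739, *Pgk1* 140.1, 193 and 407, and *Ldha* 328, 441 and 775. All 36 summed from 3477 to 7751 CPM. The run with the deepest macrophages, a median of 28712 UMIs, had a sum of 4457, and the part of depth in the spread between runs was not tested. The same gate in CD4/CD8-selected cells had 20 of 22 members with a 2-fold range (33.6% of 2614 genes), and *Bnip3* ran from 10.9 to 184 there.

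Some other gates were steadier. In *Retnla Ear2* myeloid cells 0 of 16 members had a 2-fold range over runs (5.54% of all genes of that level), and in cDC1 2 of 15 did (8.53%). *Aldoa* in cDC1 had a lowest, median and highest run of 178, 202 and 218, and *Pgk1* had 176, 226 and 254. Among 11794 CD8 T cells, 0 of 13 did (6.02%), with summed members from 3540.1 to 3916 CPM. Others were not: monocytes, with 11 to 33 cells a run, summed from 3066 to 9968 CPM, tumor cells of the CD4/CD8-selected cells had 7 of 20 members with a 2-fold range (25.6%), and conventional CD4 T cells 7 of 15, where 57.3% of all genes did. *Tmem119 Zmynd15* macrophages had 11 of 18 (12.2%) and *Lyve1 Cd209f* macrophages 14 of 17, in a gate where 39.5% of all genes did so. Runs are not known to be samples, and whether the spread in macrophages follows mice, genotypes or handling cannot be told apart here.

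**Figure D2:**
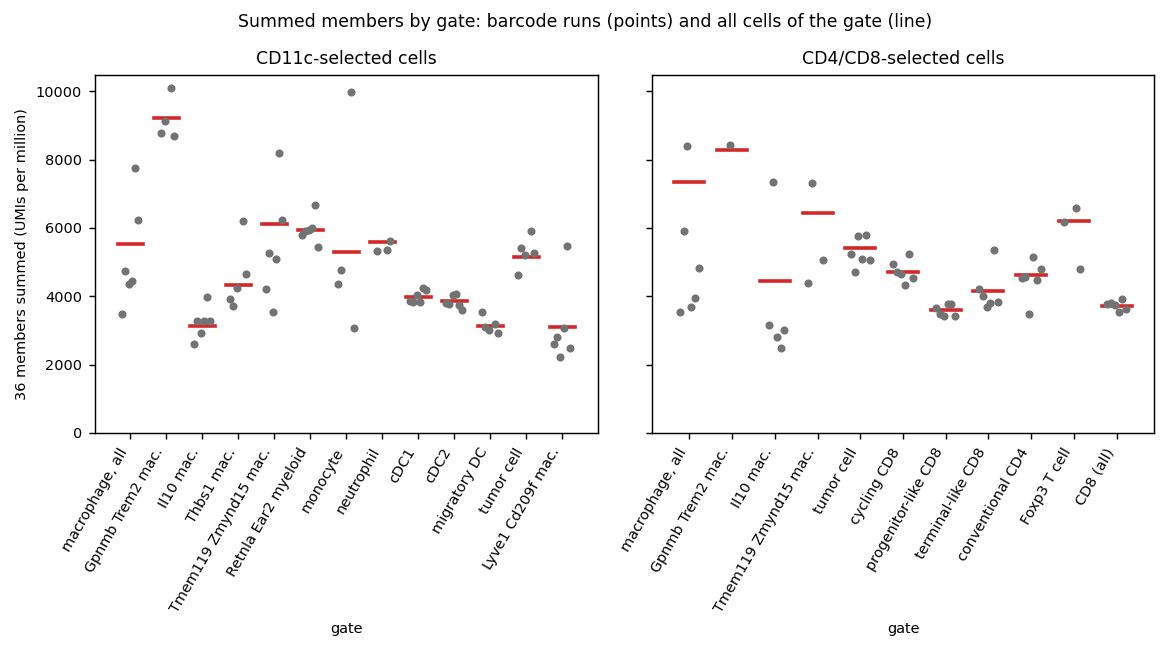
Summed level of the 36 members, in CPM, by gate in both matrices. Each point is a barcode run with at least 10 cells of the gate and the red line is the value over all cells; the points of macrophages spread from 3477 to 7751 in CD11c-selected cells, while those of CD8 T cells lie from 3540.1 to 3916.

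Over the gates, a core of the pathway moved together. For 11 gates of the CD11c-selected cells, 13 of 32 members had a Pearson correlation of at least 0.7 with the mean z score of the other members, against 2.76% of all 9279 genes. These points share libraries and differ in depth, and the correlations are given as descriptions. They were *Slc2a1* (0.70), *Aldoa* (0.88), *Tpi1* (0.90), *Gapdh* (0.76), *Pgk1* (0.75), *Pgam1* (0.80), *Eno1* (0.88), *Pkm* (0.95) and *Ldha* (0.82), thus the entry of glucose and the steps from aldolase to lactate, with *Pdk1* (0.82), *Bnip3* (0.90), *Bnip3l* (0.70) and *Ero1l* (0.79). *Pdk1* encodes the kinase that shuts pyruvate dehydrogenase, and *Ero1l* an oxidase of the endoplasmic reticulum. All but *Slc2a1* (highest in tumor cells) and *Ero1l* (highest in neutrophils) had their highest level in *Gpnmb Trem2* macrophages. *Pfkp*, *Pfkfb3* and *Ndrg1* ran the other way, at -0.47, -0.46 and -0.46.

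With gates rebuilt without each barcode run in turn, the count was 10 to 12, and 10 of the 13 genes were kept every time. *Slc2a1* and *Bnip3l* were kept in 1 of 6 rebuilds and *Pdk1* in 5 of 6. In the CD4/CD8-selected cells, 9 of 34 members reached 0.7 over 9 gates (4.82% of all 9327 genes): *Slc2a1*, *Hk2*, *Aldoa*, *Tpi1*, *Pgam1*, *Pkm*, *Ldha*, *Ldhb* and *Ero1l*. This count was 5 without the run that holds 119 of the 131 *Gpnmb Trem2* macrophages, and *Aldoa* and *Pkm* were kept in 6 of 6 rebuilds.

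The same genes moved together from cell to cell within macrophages. Each CD11c-selected macrophage was thinned to 4000 UMIs, and the 351 cells with a *Bnip3* UMI were set against the 3289 with none, with 579 shallower cells left out. The other 35 members summed to 9467 CPM against 4204, a 2.25-fold difference (95% interval 2.21 to 2.29). Of 29 members that reached 5 CPM in this gate, 23 were higher by at least 25% (20.4% of 8614 genes) and 0 lower by the same factor (14.8%), with a median log2 fold of 1.06 against 0.04. Ratios printed for single genes in splits by *Bnip3* include 1 UMI added to each side, and their intervals do not. *Ero1l* stood at 129.6 against 32.8, 3.96-fold (95% interval 3.30 to 4.71). *Pgk1*, phosphoglycerate kinase, stood at 546 against 176, 3.11-fold (95% interval 2.86 to 3.37). *Tpi1*, triosephosphate isomerase, stood at 578 against 192, 3.02-fold (95% interval 2.78 to 3.26). *Egln1*, the prolyl hydroxylase PHD2 that marks HIF-α subunits, stood at 86.9 against 30.8, 2.84-fold (95% interval 2.29 to 3.46).

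The 6 members that did not reach this factor were *Hif1a*, known to respond to oxygen at the protein level, and 5 more. *Pfkfb3* had a ratio of 0.886, *Ldhb* 0.892, *Slc16a1* 1.04, *Hk2* 1.15 and *Pfkfb4* 1.16. Of the barcode runs, 5 had at least 20 cells on the *Bnip3* side. There 19 of 28, 24 of 29, 26 of 29, 30 of 32 and 25 of 29 members were higher by at least 25%. The shares of all genes higher by that factor in the same runs were 44.5%, 37.4%, 50.7%, 26.0% and 35.6%. The *Bnip3* sides held 24 to 144 cells, where the 1 UMI added lifts genes of few UMIs, members and others alike. The summed ratio, with no UMI added, was 1.43, 2.14, 1.82, 2.22 and 1.84 in these runs. It was 0.971 (95% interval 0.804 to 1.16) in the run with 8 cells on the *Bnip3* side. Between runs, 4.97% to 17.0% of macrophages had a *Bnip3* UMI after thinning. Leaving out every macrophage with 2 or more UMIs of *Gpnmb* or *Trem2* gave 23 of 29 members again (33.5% of all genes).

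Other pathway genes followed *Bnip3* as well: 14 of 27 tested were higher by that factor and 1 lower. *P4ha2* was 6.75-fold higher, *Gys1*, muscle-type glycogen synthase, 4.77-fold, *Fam162a* 3.79-fold, *Pgm2*, a phosphoglucomutase, 3.37-fold, *Mif* 3.17-fold and *Ddit4*, an inhibitor of mTORC1, 2.97-fold. In CD4/CD8-selected macrophages, thinned to 3000 UMIs, 28 of 33 members were higher with *Bnip3* (149 against 559 cells, 30.3% of all genes). Within the run that holds most of these macrophages it was 25 of 32 (125 against 263 cells, 28.5% of all genes), and the summed ratio was 1.55. In CD8 T cells, 6 members were higher and 6 lower of 28 (70 against 10187 cells). Of all genes, 39.4% were higher and 15.9% lower there. The 1 UMI added to each side weighs most on the 70 cells. *Hk2* (9.52 against 10.6 CPM) and *Ldhb* (4.76 against 7.17) counted as higher only through it. Its part in the share of all genes was not measured.

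Splitting cells by *Pgk1* instead gave counts that differed between cell types. In CD11c-selected macrophages, 21 of 29 members were at least 25% higher in the 1634 cells with a *Pgk1* UMI than in the 2006 without (14.5% of all genes), and 1 was lower (8.37%). In *Il10* macrophages it was 13 of 29 higher (21.5%). Cells other than macrophages also had members higher above the share of all genes: 15 of 29 in *Retnla Ear2* myeloid cells (21.5%), 16 of 31 in tumor cells of the CD11c-selected cells (33.2%) and 3 of 27 in CD8 T cells (3433 against 6824 cells, 4.44%), where 0 were lower (2.28%). In cDC1 it was 4 of 28 higher and 7 lower (188 against 156 cells, 21.6% and 22.7%). Splitting by *Ldha* gave 18 of 29 higher in CD11c-selected macrophages (15.4%), 14 of 31 in tumor cells of the CD4/CD8-selected cells (24.6%), 6 of 28 in cDC1 (21.1%) and 1 of 27 in CD8 T cells (3.88%). Split by *Pgk1*, cDC2 had 4 of 27 higher (27.0%) and migratory DC 9 of 25 (36.2%). Among T cell gates defined below, cycling CD8 had 4 of 26 (15.3%) and terminal-like CD8 4 of 28 (27.4%). Conventional CD4 had 5 of 29 (27.9%) and progenitor-like CD8 6 of 26 (18.1%), and CD4/CD8-selected tumor cells 18 of 31 (43.0%). In cDC1, cDC2, migratory DC, cycling CD8, terminal-like CD8 and conventional CD4, *Pgk1* counts were near the shares of all genes or below them. So were *Ldha* counts in cDC1 and CD8 T cells. In CD8 T cells split by *Ldha*, smaller shifts remained. There 18 of 27 members were above 1, with a median log2 fold of 0.118 against 0.0035 over all genes.

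**Figure D3:**
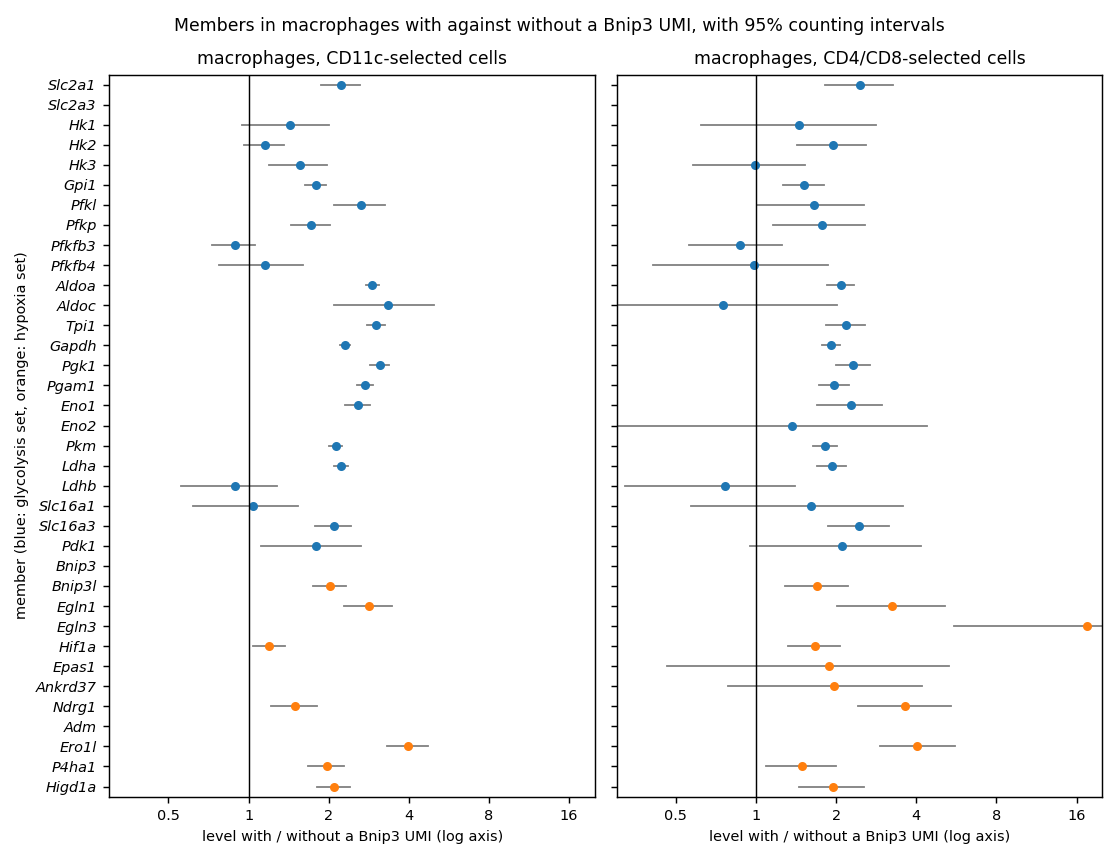
Ratio of each member's level in macrophages with a *Bnip3* UMI to its level in macrophages with none, on a log axis, for CD11c-selected (thinned to 4000 UMIs) and CD4/CD8-selected cells (3000 UMIs). Bars are 95% intervals of the ratio, cut at 0.3 and 20; blue marks transport and glycolysis genes, orange hypoxia-response genes, and members below 5 CPM have no point. Points include 1 UMI added to each side, and bars do not. Most points lie right of 1 in both panels, *Pfkfb3* and *Ldhb* left of it in the CD11c-selected cells.

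Dendritic cells used other members. *Pfkp*, the platelet-type phosphofructokinase, stood at 452 (runs 418 to 525) in cDC1, 349 (runs 315 to 379.9) in cDC2 and 322 (runs 275 to 361) in *Retnla Ear2* myeloid cells, with ranges over barcode runs in parentheses, against 73.6 (runs 57.9 to 88.3) in macrophages. The ranges of these 3 gates lay above that of macrophages, and the share of all genes of which that holds was not computed. Of all *Pfkl* and *Pfkp* UMIs, *Pfkl*, the liver type, made up 4.05% (95% interval 3.37 to 4.82) of 2985 UMIs in cDC1 and 5.89% in cDC2, against 32.9% in macrophages. cDC1 and cDC2 were close to each other: 1 of 32 members, *Hk3*, was 2-fold higher in cDC1 (9.05% of all genes) and 4 were lower (11.0%), namely *Pfkfb3*, *Pfkfb4*, *Slc16a3* and *Ndrg1*.

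Migratory DC had little of the glucose entry and lactate steps. Against cDC2, 8 members were at least 2-fold lower (13.9% of all genes) and 2 higher (13.2%), *Pfkfb3* and *Epas1*. *Slc2a1* stood at 7.14 (95% interval 3.99 to 11.8) against 57.7 (95% interval 49.1 to 67.3), *Hk2* at 33.3 against 102, and *Ldha* at 153 against 395. *Gpi1*, *Pfkfb4*, *Aldoc*, *Eno1* and *Slc16a3* completed the lower genes. *Pfkfb3* stood at 260.2 against 49.5, 5.26-fold (95% interval 4.36 to 6.39). *Eno2*, the neuronal enolase, was too low in the whole matrix to be tested, yet stood at 24.7 (95% interval 18.5 to 32.4) in migratory DC and no higher than 4.49 in the other CD11c-selected gates, so that *Eno1* made up 69.8% of both. *Eno3*, muscle-type enolase and a further pathway gene, was 31.0-fold (95% interval 19.1 to 53.8) higher, at 189 against 6.09. *Ndrg1*, a stress-induced gene, stood at 365 in migratory DC, 257 in cDC2 and 57.2 in macrophages.

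Neutrophils and monocytes had more *Slc16a3* and *Hif1a* RNA than macrophages. Members were called 2-fold higher there at about the share of all genes or below it. In 67 neutrophils with a median of 3027 UMIs, 4 of 32 members were 2-fold higher than in macrophages, where 25.8% of all genes were. Lower was 1 member (15.1%). The 1 UMI added for calls weighs far more on the 202224 UMIs of this gate than on the 51924070 of macrophages. It lifts genes of few UMIs toward a higher call, and its part in the share of all genes was not measured. *Slc16a3* stood at 732 (95% interval 619 to 859.7) against 89.2 (95% interval 86.7 to 91.8), 8.20-fold (95% interval 6.92 to 9.66) higher. *Slc2a1* and *Hif1a* were the others of more than 1 UMI, at 173 and 272, and *Ankrd37* rested on 1 UMI. *Slc2a3*, the glucose transporter GLUT3, reached 89.0 (95% interval 52.8 to 141) there and at most 15.1 in the other CD11c-selected gates, and *Egln3*, the prolyl hydroxylase PHD3, reached 34.6. *Vegfa* was at 1573 against 197, 1 of 10 further pathway genes of 30 that were 2-fold higher. In 75 monocytes, *Hif1a* stood at 350.2 (95% interval 307 to 398) against 136 in macrophages, and 4 members were 2-fold higher (10.0%; *Pfkp*, *Slc16a3*, *Hif1a* and *Ankrd37*) and none lower (8.65%).

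Tumor cells had another isozyme make-up, in both matrices. The gates took cells with *Epcam*, *Krt8* and *Krt18* and without *Ptprc*, 247 among CD11c-selected and 246 among CD4/CD8-selected cells. Against macrophages, 7 members were 2-fold higher and 7 lower in CD11c-selected cells, near the shares of all genes (19.1% and 18.7%), and 3 and 11 of 34 in CD4/CD8-selected cells (23.3% and 15.5%). The latter became 9 and 6 against macrophages without the run that holds 396 of the 726 (21.8% and 16.4%). *Aldoc*, the brain-type aldolase, stood at 199 (95% interval 188 to 210.0) against 9.86 (95% interval 9.02 to 10.8) and at 196 against 7.38. *Aldoa* thus made up 72.5% and 73.5% of both aldolases in tumor cells, and 98.2% in CD11c-selected macrophages. *Ndrg1* stood at 436 (runs 341 to 605) and 354 (runs 222 to 459.5), against 57.2 (runs 38.7 to 71.2) and 49.0 (runs 10.9 to 58.7). These ranges over runs do not overlap, and the share of all genes of which that holds was not computed.

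Hexokinases and lactate transporters also had another make-up in tumor cells. *Hk1* made up 53.5% (95% interval 49.8 to 57.2) of 738 UMIs of *Hk1*, *Hk2* and *Hk3*, and *Hk3* had 0 UMIs in both tumor gates, which allows up to 3 counts. In macrophages *Hk2* made up 61.7% and *Hk3* 26.1%. *Slc16a3* stood at 5.46 (95% interval 3.80 to 7.59) and 3.80 (95% interval 2.56 to 5.42) in tumor cells, 16.4-fold and 33.2-fold lower than in macrophages. The macrophage level behind the 33.2-fold was 126, and 67.7 without the run that holds 396 of the 726 cells. *Slc16a1* thus made up 69.0% of both transporters in tumor cells. *Slc2a1* was at 206 and 191, and *Ldhb*, the B subunit of lactate dehydrogenase, at 69.2 and 65.7, against 23.5 (95% interval 22.2 to 24.9) in macrophages of the CD11c-selected cells. *Ldha* made up 88.7% and 90.5% of both subunits in tumor cells and 99.8% in cDC1. The mitochondrial share of tumor cells was high, at a median of 10.8% in CD11c-selected cells.

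**Figure D4:**
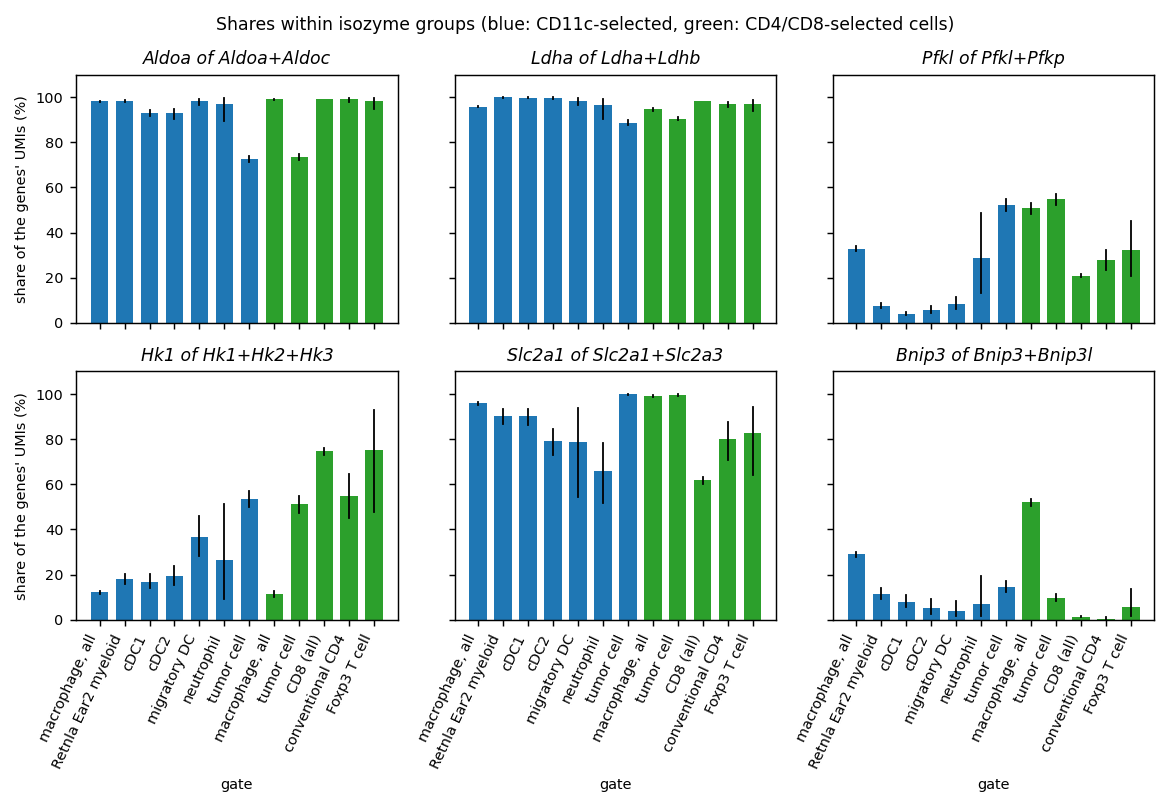
Share (%) of the UMIs of each isozyme family taken by 1 member, by gate, in CD11c-selected (blue) and CD4/CD8-selected cells (green), with 95% Clopper-Pearson intervals that cover counting error only. In tumor cells *Aldoa* takes 72.5% and 73.5%, against 92.9% or more in every other gate, and *Pfkl* takes 52.1% and 54.7% of the phosphofructokinase UMIs.

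CD8 T cells differed from macrophages in isozymes and in *Bnip3*. Over 11794 cells, *Gapdh* stood at 1102 (runs 1037 to 1214), *Ldha* at 376 (runs 335 to 419.6) and *Pgk1* at 161 (runs 131 to 194), again with ranges over 6 runs. *Hk1* made up 74.6% of the hexokinases and *Hk2* 24.5%. *Slc2a1* made up 61.8% of *Slc2a1* and *Slc2a3*, and *Slc16a1* 85.3% of the lactate transporters. *Bnip3* was nearly absent, at 2.28 (95% interval 1.94 to 2.66) against 139 in macrophages of the same matrix. The macrophage level was 34.0 (95% interval 28.7 to 39.9) without the run that holds 396 of the 726 cells. *Bnip3l*, the paralog with a role in mitophagy, stood at 162 against 129. Free RNA in droplets was not removed, and its part in such low levels was not tested.

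**Figure D5:**
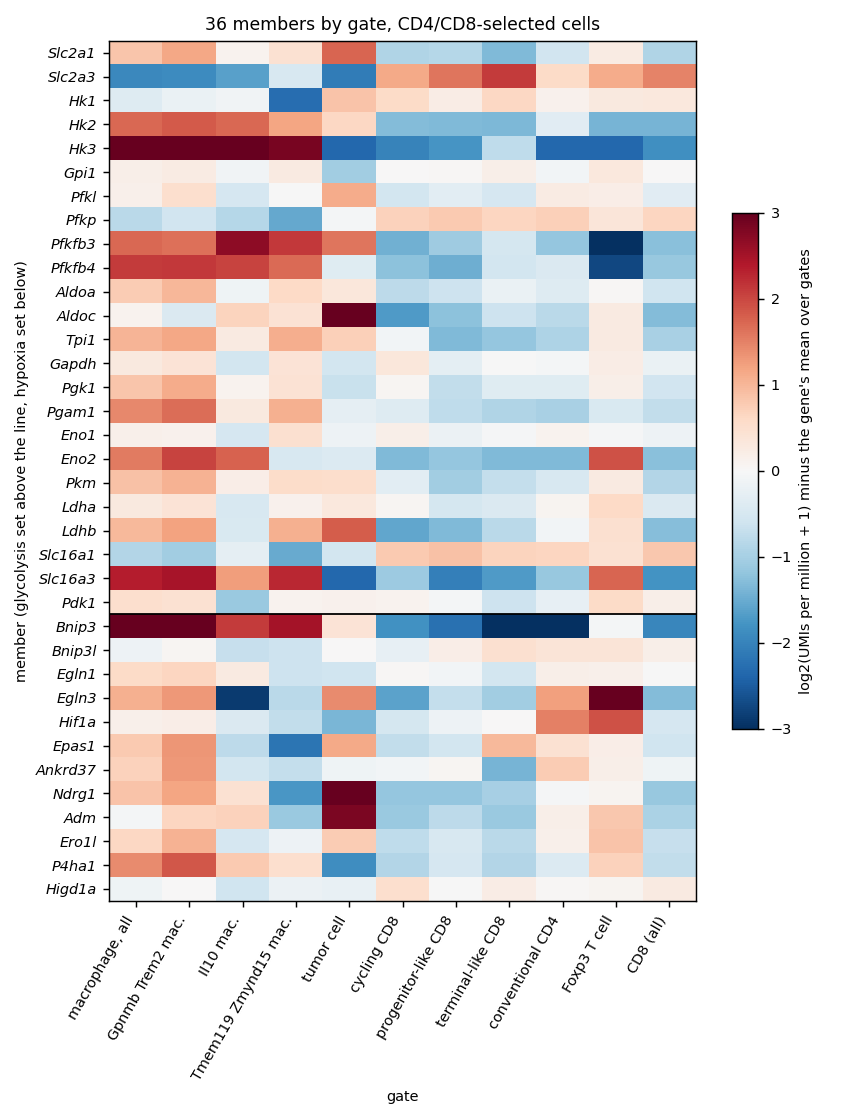
Levels of all 36 members in the gates of the CD4/CD8-selected cells, as log2(CPM + 1) minus the mean of the gene over the gates, with the colour scale cut at 3 either way. *Bnip3*, *Hk3* and *Slc16a3* separate macrophages from CD8 gates, *Aldoc* and *Ndrg1* the tumor cells, and *Hif1a* the CD4 and *Foxp3* gates.

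Terminal-like CD8 T cells (*Pdcd1* and *Havcr2* without *Tcf7*, 344 cells) differed by 2-fold from progenitor-like ones (*Pdcd1* and *Tcf7* without *Havcr2*, 1179 cells) in few members. Of 34 members tested, 3 were 2-fold higher in terminal-like cells (6.58% of all genes) and 1 lower (2.02%), all below 20 CPM. *Epas1*, which encodes HIF-2alpha, stood at 15.2 against 4.60, 3.31-fold (95% interval 1.97 to 5.54) higher, in 4 of 6 barcode runs. *Hk3* and *Pfkfb4*, the others, had 4 and 7 UMIs in terminal-like cells, and the lower member, *Ankrd37*, stood at 3.05 against 10.1. Abundant members differed less. *Gapdh* stood at 1263 against 1036 and *Pkm* at 335 against 264, each higher in 6 of 6 barcode runs. *Hif1a* stood at 164 against 146, 1.12-fold (95% interval 0.989 to 1.27) higher, and *Slc2a3* at 28.9 (95% interval 21.9 to 37.5) in terminal-like cells.

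Cycling CD8 T cells (*Mki67* and *Top2a*, 926 cells) had summed members of 4718 CPM, against 3588 in progenitor-like and 4142 in terminal-like cells. *Gapdh* stood at 1616 (runs 1418 to 1911) in cycling and 1036 (runs 932 to 1172) in progenitor-like cells, *Tpi1* at 169 (runs 126 to 198) and 70.7 (runs 57.2 to 90.0), and *Pkm* at 441 (runs 372 to 504) and 264 (runs 253 to 277). Cycling cells were deeper, with a median of 10570 UMIs against 5722 in progenitor-like cells.

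*Hif1a* was highest in CD4 T cells among the T cell gates. It stood at 465 (95% interval 436 to 495) in 435 conventional CD4 T cells and 614 (95% interval 536 to 701) in 58 *Foxp3* T cells, against 115 (95% interval 112 to 117) in CD8 T cells. *Foxp3* T cells were gated without a minimum for *Cd4*, a choice made after 24 cells were left with it, and 272 conventional CD4 T cells lay in 1 barcode run. Against conventional CD4 T cells, 7 members were 2-fold higher in *Foxp3* T cells (17.6% of all genes) and 1 lower (5.07%). *Tpi1* stood at 215 against 93.9, 2.29-fold (95% interval 1.73 to 3.00) higher. *Slc16a3* stood at 80.9 against 10.3, 7.88-fold (95% interval 4.34 to 14.5) higher, and *Egln3* at 69.8 against 16.1. *P4ha1*, a collagen prolyl hydroxylase subunit, was 2.19-fold (95% interval 1.33 to 3.53) higher. The remaining calls rest on few UMIs: *Bnip3* had 4 in *Foxp3* T cells and *Aldoc* 3, *Hk3* had 0 in both gates and passed only through the 1 UMI added, and the lower member, *Pfkfb3*, had 0.

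*Gpnmb Trem2* macrophages of the CD4/CD8-selected cells summed to 8295 CPM, beside 7332 in all macrophages of that matrix, a sum that was 4812 without the run that holds 396 of the 726. No member was 2-fold higher (1.67% of all genes) or lower (4.22%) than in the other macrophages, although 29 of 34 were above 1. The median log2 fold was 0.29 over the members, against -0.02 over all genes. In the run with 119 of the 131 cells, the summed members were 1.01 (95% interval 0.992 to 1.02) of those of the run's other macrophages, so in that run the gate did not stand out. *Bnip3* stood at 171 in the gate and 139 in all macrophages.

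Of the remaining members, *Adm*, which encodes adrenomedullin, stayed below the test minimum in both matrices and reached at most 14.4 CPM, in tumor cells of the CD4/CD8-selected cells. *Higd1a*, a mitochondrial protein gene induced by hypoxia, ran, among CD11c-selected cells, from 49.5 in neutrophils to 150.4 in *Retnla Ear2* myeloid cells. *Gpi1*, glucose-6-phosphate isomerase, ran in the same cells from 112 in migratory DC to 334 in *Tmem119 Zmynd15* macrophages. *Pfkl* was highest in tumor cells, at 118 and 105. *Aldoa* had 2 rows in the matrices, and the values are those of the row with 55209 and 47970 UMIs, the other having 1 and 0.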

How the data were processed

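UMI counts by gene and cell, not normalized, were deposited by the authors as 1 matrix per selection. Cell Ranger 3.0.2 and mm10 are named in the submitters' processing notes. Members, lists and gates were chosen with earlier results of these data known. Barcodes with at least 200 detected genes were kept. Gates used raw UMIs of marker genes, a cell in several gates was left out, and gates of at least 50 cells are reported, except that 1 CD8 gate, which entered the correlations over gates, is not reported here. The *Lyve1 Cd209f*, *Foxp3* and all-CD8 gates and the splits by barcode run were chosen after cell numbers were seen. Depth per barcode run was 13314063 to 24231244 UMIs (CD11c-selected) and 16203038 to 30168668 (CD4/CD8-selected).

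Levels are summed UMIs per 1000000 UMIs (CPM) with exact 95% Poisson intervals, ratios have intervals of a ratio of 2 Poisson rates, and shares have Clopper-Pearson intervals. All cover counting error only. Genes of at least 5 CPM in the matrix were tested for size, 2-fold between gates and 25% within a gate, both with 1 UMI added. Over gates the size was r of at least 0.7 on log2(CPM + 1). The added UMI lifts genes of few UMIs in the smaller group, among members and all genes alike. For the cell-to-cell splits, cells were thinned to 4000 or 3000 UMIs. All 36 members are accounted for. Of 45 further pathway genes at most 6 of largest fold are named per comparison, and outside the lists the 5 genes of highest r. Alternatives were depth, mitochondrial share, equal weight per cell, stricter or overlapping gates, another pseudocount, thinning to 2000 UMIs, and leaving out each run. Genotypes were not compared, since the matrices used here do not tie cells to samples, and the processed R objects that the study describes were not used here.

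Promoters came from RefSeq (GRCm38.p6, matched by symbol). Scripts were tested on simulated data, and used Python 3.11.15, numpy 2.4.6, scipy 1.17.1, pandas 2.3.3 and matplotlib 3.10.9.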

Additional observations from a re-analysis of the deposited data

How the results depend on the processing

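No paired analysis was possible because no test was run and the matrices carry no replicate number. The summed members in *Gpnmb Trem2* over other macrophages of CD11c-selected cells were 1.75-fold, and 1.93 with equal weight per cell, 1.70 with every gate minimum raised by 1 UMI, 1.87 with cells of several gates kept, 1.61 with at least 10000 UMIs, and 1.69 to 1.86 leaving out a barcode run. For *Lyve1 Cd209f* (0.549) these were 0.579, 0.515 and, at 10000 UMIs, 0.519, then 0.490 with the 35 cells of the first rule and 0.534 to 0.582. For *Il10* (0.532) they were 0.581, 0.560, 0.632 and 0.502 to 0.592. In CD4/CD8-selected cells the *Gpnmb Trem2* ratio (1.18) was 1.42, 1.16, 1.54, 1.12 and 1.14 to 1.34. The tumor cell ratio there (0.736) was 0.861 with equal weight per cell, 0.751 with mitochondrial shares under 10%, and 0.708 to 1.07, reversed at 1.07 without the run that holds 396 of 726 macrophages. In CD11c-selected cells the direction reversed against macrophages for monocytes (1.07 with equal weight per cell, 0.912 to 1.07 leaving out a run, with 1.07 without run 6), tumor cells (1.13 with equal weight, 0.887 to 1.07 leaving out a run, with 1.07 without run 5) and *Thbs1* macrophages (1.09 with cells of several gates kept), and for cDC1 over cDC2 (0.961 with such cells kept). Coordinated members numbered 13, but 21 over the 4 macrophage gates alone (20.4% of all genes) and 10 to 12 leaving out a run. In CD4/CD8-selected cells they numbered 9, but 19 over the 3 macrophage gates alone (22.0%). They numbered 14 without tumor cells and neutrophils (9.11%), and 5 to 13 leaving out a run. Over 3 or 4 gates a correlation of 0.7 is a weak criterion. The *Aldoa* share in tumor cells of CD11c-selected cells (72.5%) was 70.1% with mitochondrial shares under 10% and 70.1% with equal weight, and in CD4/CD8-selected cells (73.5%) 76.0% and 68.1% to 75.8% leaving out a run. The *Ldha* shares of tumor cells were 87.0% to 89.3% and 88.0% to 91.3% leaving out a run, the *Eno1* share of migratory DC (69.8%) was 59.6% with equal weight, and the *Slc2a1* share of CD8 T cells (61.8%) was 59.8% to 62.6%. Without run 3, the members summed to 4812 CPM in CD4/CD8-selected macrophages, against 7332 with it, and *Slc16a3* in these macrophages was 67.7 CPM, against 126. The cause of these shifts was not tested. Single members kept their direction under every alternative run wherever they had been 2-fold apart. The 2-fold call itself was lost in 95 of these checks and kept in 1092.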

Other observations

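Genes outside the lists that ran with the members over the gates were, by the highest correlation with their mean, *Mrps18a* (0.94), *Znhit1* (0.93), *Prdx5* (0.92), *Lrpap1* (0.91) and *Lias* (0.90) over 11 gates of CD11c-selected cells, and *Golph3l* (0.93), *Ugp2*, *Mical2*, *Vapb* and *Capg* over 9 gates of CD4/CD8-selected cells. The gates share libraries, so these values describe likeness of pattern only. Among the 45 further pathway genes, *Mif* (0.93), *Fam162a* (0.87) and *Pgm2* (0.85) reached 0.7 in CD11c-selected cells, and *Mpc1* (0.89), a subunit of the mitochondrial pyruvate carrier, with *Pgm2* (0.85), *Fam162a* (0.84) and *Plod1* (0.70) in CD4/CD8-selected cells.

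In macrophages with a *Bnip3* UMI the leading gene outside the lists was *Arg1*, which encodes arginase and marks alternative activation. It stood at 400.3 against 42.9, 9.34-fold (95% interval 8.29 to 10.5), in CD11c-selected macrophages, and at 973 against 262, 3.72-fold (95% interval 3.25 to 4.25), in CD4/CD8-selected macrophages. *Htr2b*, a serotonin receptor, had a ratio of 6.01, *Atp6v0d2*, a proton pump subunit, 4.27, *Cspg4* 4.24 and *Slc7a2*, a transporter of arginine, 3.84 in CD11c-selected macrophages. These 5 genes were chosen after their values were seen.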
